A study of Mus musculus with 8 samples.

Results

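The 38 genes described here encode proteins that the liver secretes into blood or uses in metabolism. They were chosen by their symbols from a list drawn up after their CD36_KO and WT levels in these libraries had been seen, and all 38 were found among the 55335 genes of the deposited tables. The RNA was that of tumour-infiltrating cells sorted as CD8 T cells, and the tumours were B16, a mouse melanoma line injected intravenously and left to grow for 14 days in every mouse. The tested mice carried a knockout of Cd36 (CD36_KO), and the mice they were set against were wild type (WT), both on the C57BL/6 background. The 8 deposited samples are lanes 1 to 4 of 1 sequencing library per genotype, so a genotype has 1 library and no replicate, and no p-value is given. The sources used here give no age, sex, number of animals per library or tissue site of the tumours, nor the allele of the knockout.

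Hepatocytes, the parenchymal cells of the liver, make most plasma proteins, among them albumin, the apolipoproteins of lipoprotein particles, the clotting factors and the serpins that hold proteases in check. The same cells run the urea cycle, make glucose, break down tyrosine and oxidise drugs with cytochromes P450. Transcription factors of the HNF1, HNF4 and C/EBP families bind the promoters of many of these genes in liver. T cells are not among the known sources of most of these proteins.

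The promoters of several of the genes share a short sequence, whose letters were not used in choosing the list. It is the site of a factor already known to bind promoters of such genes in liver. Its share among liver genes is therefore not independent of their choice. The hexamer GTTAAT, the core of the HNF1 binding site, read on both strands, stood in the 250 bases before the RefSeq start of 13 of the 30 genes that matched the RefSeq promoter table for GRCm38.p6, or 43.3%, against 7.49% of the 27025 genes in that table. The 5 Serpina1 genes, near-copies of each other, supply 5 of the 13. The 250 bases before the start of Alb, at chr5:90460620-90460869 on the plus strand, are printed with the hexamer and a match to the C/EBP motif TTGCNNAA, which lies on the minus strand, in capitals.
Alb: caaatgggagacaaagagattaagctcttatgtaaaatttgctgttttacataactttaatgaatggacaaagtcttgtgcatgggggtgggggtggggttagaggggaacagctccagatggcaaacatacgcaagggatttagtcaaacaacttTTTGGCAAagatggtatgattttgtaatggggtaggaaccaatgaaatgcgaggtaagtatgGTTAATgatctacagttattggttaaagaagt

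Windows of 60 bases around the hexamer in other genes are printed 5′ to 3′ on the strand of each gene, with the hexamer in capitals. Serpina1a is at chr12:103863620-103863679 and Serpina1e at chr12:103956943-103957002, both on the minus strand. Gc is at chr5:89457918-89457977 and Fgb at chr3:83049864-83049923, both on the minus strand, and G6pc is at chr11:101367468-101367527 on the plus strand. In Fgb the hexamer reads on the opposite strand.
Serpina1a: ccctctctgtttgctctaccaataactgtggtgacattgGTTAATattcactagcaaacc
Serpina1e: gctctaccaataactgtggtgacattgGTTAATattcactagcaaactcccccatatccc
Gc: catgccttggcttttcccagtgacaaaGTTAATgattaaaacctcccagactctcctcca
Fgb: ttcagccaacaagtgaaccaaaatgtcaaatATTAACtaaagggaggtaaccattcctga
G6pc: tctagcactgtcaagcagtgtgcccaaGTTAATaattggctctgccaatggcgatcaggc
The C/EBP motif was found in 12 of the 30 genes, or 40.0%, against 10.8% of the 27025 genes. The letters TATAAA, those of the TATA box, stood in 8 of the 30, or 26.7%, against 14.3%. They were counted anywhere in the 250 bases, also far from the usual place of a TATA box. The HNF4 motif CAAAGTCCA was found in Cyp3a11 alone, against 0.451% of the 27025 genes. All motifs were read on both strands. The matches describe letters in a window and do not show that a factor was bound.

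All lanes held 2497048 to 2611740 estimated counts, with totals of 10363391 in the CD36_KO library and 10071960 in the WT library. Cd36 itself had 358 counts in the CD36_KO library and 1194 in the WT library, a log2 ratio of −1.98 with an interval of −2.15 to −1.80, so reads of the targeted gene were fewer but present. Every ratio here is the log2 ratio of CPM (counts per 1000000) after TMM scaling, CD36_KO over WT. Its interval is an exact Clopper-Pearson 95% interval of counting error only. The CPM of single lanes are counts over the total of the lane, without TMM scaling, so they are not on the scale of the ratios. Reads carry no molecular identifiers and so are not independent molecules, and variation between mice is in no interval. Genes with 5 CPM or more on average were called measured, which 12177 were. A difference of at least 2-fold was called where the log2 ratio reached 1 in size and its interval excluded 0. Over all measured genes the median log2 ratio was −0.13, and with scaling by total counts alone 0.06.

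All 38 liver genes were more abundant in the CD36_KO library. Together they held 17062 counts in the CD36_KO library and 2604 in the WT library, which is 0.165% and 0.0259% of all counts. The 4 lanes gave shares of 0.163%, 0.166%, 0.166% and 0.164% in the CD36_KO library, and 0.0272%, 0.0232%, 0.0266% and 0.0263% in the WT library. The lanes of the CD36_KO library thus lay close together and far above every WT lane. The summed genes stood 5.55-fold higher in CD36_KO, with an interval of 5.33 to 5.79, a log2 ratio of 2.47 (2.41 to 2.53). Of the 33 that were measured, 33 passed the 2-fold rule as higher and 0 as lower, and 6.50% of all measured genes passed it as higher. The remaining 5, Apoc3, Fabp1, G6pc, Tat and Hpd, lay under 5 CPM and passed it too, as did 8.09% of the 27357 genes counted in both libraries when no minimum was set. In all 38 genes the 4 CD36_KO lanes lay above the 4 WT lanes in CPM, as 29.0% of all measured genes did. The list was chosen with this contrast known, so these counts describe it and nothing is read from them. In bulk RNA, more cells of a type and more RNA per cell cannot be told apart.

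**Figure D1:**
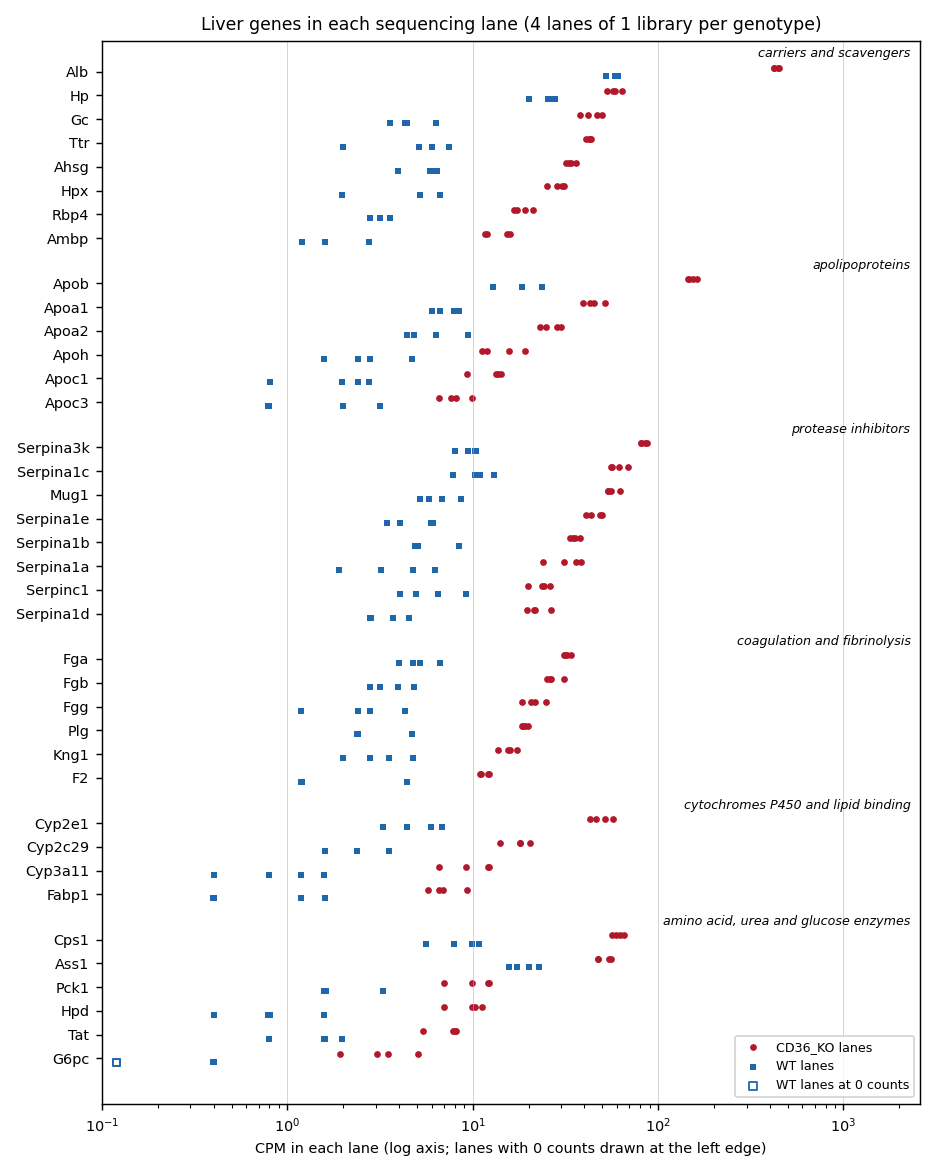
Level of each of the 38 liver genes in every sequencing lane, in CPM without TMM scaling on a log axis. CD36_KO lanes are circles and WT lanes are squares, ordered by role. Open squares at the left edge are WT lanes with 0 counts, and in every gene the 4 CD36_KO lanes lie to the right of the 4 WT lanes.

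The 8 carriers and scavengers of plasma had 6988 counts in the CD36_KO library and 1086 in the WT library, a summed log2 ratio of 2.45 (2.36 to 2.54). Alb, which encodes albumin, the main protein of plasma and a carrier of fatty acids, had 1160, 1154, 1106 and 1089 counts in CD36_KO lanes 1 to 4, against 154, 130, 149 and 148 in WT lanes 1 to 4. The groups did not overlap, and the lanes of either library differed little beside the gap between libraries. Its log2 ratio was 2.72 (2.59 to 2.85), and it alone supplied 26.4% of the counts of the 38 genes in the CD36_KO library and 22.3% in the WT library.

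Gc, which carries vitamin D in plasma, had 109, 98, 130 and 120 counts in CD36_KO lanes and 11, 11, 16 and 9 in WT lanes, a log2 ratio of 3.04 (2.61 to 3.51). Ttr, which carries thyroxine, had 105 to 113 counts per lane in CD36_KO and 5 to 19 in WT, with a ratio of 2.84 (2.42 to 3.28). Rbp4, the retinol carrier that travels bound to transthyretin, had 43 to 55 and 7 to 9 counts per lane in the CD36_KO and WT libraries, with a ratio of 2.35 (1.80 to 2.93). Both partners of the retinol carrier complex were thus higher in CD36_KO, and their intervals overlapped.

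Ahsg (fetuin-A, which keeps calcium phosphate in solution) had 349 counts in CD36_KO and 56 in WT, a log2 ratio of 2.40. Hpx (hemopexin, which binds free haem) had 298 and 48, also a log2 ratio of 2.40. Ambp, the precursor of a haem-binding microglobulin and of the inhibitor bikunin, had 142 and 21, a log2 ratio of 2.52. These 3 genes lay close to the ratio of the summed list.

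Hp did not. It encodes haptoglobin, which binds haemoglobin freed from red cells and, besides hepatocytes, is known to be made by neutrophils and other myeloid cells. It had 139, 151, 166 and 147 counts in CD36_KO lanes and 51, 69, 65 and 64 in WT lanes. The lanes did not overlap, but the WT lanes were high for this list: Hp was the gene with the second highest count in the WT library after Alb, with 9.56% of the list's counts there and 3.53% in the CD36_KO library. Its log2 ratio was 1.04 (0.82 to 1.26), the lowest of the 38. Without CD36_KO lane 3 the ratio was 0.996, and from protein-coding transcripts alone it was 0.98 (0.76 to 1.20), both short of 2-fold.

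The 6 apolipoproteins had 2680 counts in the CD36_KO library and 387 in the WT library, a summed log2 ratio of 2.55 (2.40 to 2.71). Apob, the structural protein of very low and low density lipoproteins, had 384, 395, 425 and 372 counts in CD36_KO lanes and 47, 32, 60 and 46 in WT lanes. The CD36_KO lanes were uniform, while the WT lanes spread more widely around their smaller counts. Its ratio was 2.85 (2.63 to 3.08), the highest of this role. Apoa1, the main protein of high density lipoprotein, had 103 to 133 counts per lane in CD36_KO and 15 to 21 in WT, with a ratio of 2.43 (2.07 to 2.81).

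Apoa2, the other abundant protein of high density lipoprotein, stood lower, at 1.89 (1.49 to 2.31). It had 65, 73, 78 and 59 counts in CD36_KO lanes and 16, 11, 24 and 12 in WT lanes, with lane 3 the highest in both libraries. Its interval does not hold the ratio of the summed list. Apoc1 and Apoc3, small exchangeable apolipoproteins of which Apoc3 slows the clearance of triglyceride-rich particles, had 131 and 84 counts in CD36_KO, against 20 and 17 in WT. Their log2 ratios were 2.47 (1.79 to 3.23) and 2.07 (1.30 to 2.91). Apoh, which binds anionic phospholipids, had 150 counts in CD36_KO and 29 in WT, a ratio of 2.13 (1.55 to 2.76).

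The 8 protease inhibitors had 3728 counts in the CD36_KO library and 515 in the WT library, a summed log2 ratio of 2.62 (2.48 to 2.75). The first 5, Serpina1a to Serpina1e, are the C57BL/6 copies of the gene for alpha-1-antitrypsin, which inhibits neutrophil elastase. They lie together on the minus strand of chromosome 12, between 103728156 and 103958975 in GRCm38 (GENCODE M21). In that annotation Serpina1d, from 103763594 to 103773592, falls within the span of Serpina1b, which runs to 103830373. Their coding sequences are 1239 bases each and 96.3% to 98.5% identical, and 86 aligned positions differ among them. Coding bases 1101 to 1160 are printed because 18 of the 86 fall there, in the stretch for the reactive-site loop that a protease cleaves. Capitals mark positions that differ among the copies.
Serpina1a: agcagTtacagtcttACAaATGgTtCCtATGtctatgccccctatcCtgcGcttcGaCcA
Serpina1b: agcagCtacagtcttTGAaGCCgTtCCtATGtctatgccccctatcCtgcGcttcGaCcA
Serpina1c: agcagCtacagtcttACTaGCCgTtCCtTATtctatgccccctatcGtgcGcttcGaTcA
Serpina1d: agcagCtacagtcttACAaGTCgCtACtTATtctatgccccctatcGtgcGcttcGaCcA
Serpina1e: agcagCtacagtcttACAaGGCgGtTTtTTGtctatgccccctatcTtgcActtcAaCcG
They lie at chr12:103853757-103853816, chr12:103728324-103728383, chr12:103895094-103895153, chr12:103763762-103763821 and chr12:103947100-103947159 in the order printed. Reads that fall outside such stretches are divided among the copies by the pseudoaligner. Of the 31-base words of each gene's transcripts, 34.8% in Serpina1a, 55.3% in Serpina1b, 14.2% in Serpina1c, 35.3% in Serpina1d and 45.8% in Serpina1e occur in no other gene, so the split between copies is uncertain and their sum is the firmer value.

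The 5 copies summed to 2037 counts in CD36_KO and 290 in WT, a log2 ratio of 2.57 (2.40 to 2.76). Serpina1c had the most reads, with 161, 144, 146 and 178 counts in CD36_KO lanes and 28, 33, 26 and 20 in WT lanes, a ratio of 2.33 (2.03 to 2.64). Serpina1e had 113, 105, 128 and 128 in CD36_KO lanes and 16, 15, 9 and 10 in WT lanes, a ratio of 3.04 (2.61 to 3.49). The lanes of the libraries did not overlap for either copy. Serpina1a, Serpina1b and Serpina1d had ratios of 2.80, 2.40 and 2.48.

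Serpina3k, a serpin of the mouse antichymotrypsin family, had 207 to 225 counts per lane in CD36_KO and 20 to 26 in WT, with a ratio of 2.93 (2.63 to 3.25). Mug1, a murinoglobulin that traps proteases as its relative alpha-2-macroglobulin does, had 138 to 162 counts per lane in CD36_KO and 13 to 22 in WT, with a ratio of 2.89 (2.52 to 3.27). From its protein-coding transcripts alone, which held 89.5% of its counts in CD36_KO and 63.7% in WT, the ratio was 3.37 (2.92 to 3.85). Mug2, the neighbouring family member with which it shares 28.1% of its 31-base words, had 142 counts in CD36_KO and 21 in WT, a ratio of 2.52.

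Serpinc1 encodes antithrombin, the inhibitor of thrombin, and was the lowest of the inhibitors at 1.73 (1.33 to 2.16). It had 61, 67, 52 and 62 counts in CD36_KO lanes and 12, 10, 16 and 23 in WT lanes, the last WT lane being the highest. Only 53.3% of its counts in CD36_KO and 44.6% in WT were assigned to protein-coding transcripts. Its transcripts share 33.8% of their 31-base words with Zbtb37, a gene outside the list with 724 counts in CD36_KO and 478 in WT, a ratio of 0.36 (0.19 to 0.53). From protein-coding transcripts alone the ratio of Serpinc1 was 1.97 (1.37 to 2.61).

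Among the 6 genes of coagulation and fibrinolysis, the interval of every one held the ratio of the summed list. They had 1315 counts in the CD36_KO library and 199 in the WT library, a summed log2 ratio of 2.49 (2.27 to 2.71). Fga, Fgb and Fgg encode the 3 chains of fibrinogen, the precursor of the fibrin clot, and lie together on chromosome 3 from 83007724 to 83049863. Fga had 82, 83, 81 and 87 counts in CD36_KO lanes and 17, 10, 12 and 13 in WT lanes. Fgb had 68, 80, 66 and 68 in CD36_KO lanes and 8, 7, 10 and 12 in WT lanes. Fgg had 48, 64, 54 and 56 in CD36_KO lanes and 11, 6, 3 and 7 in WT lanes. No lane of one library reached the other in any chain. Their log2 ratios were 2.44 (2.02 to 2.89), 2.69 (2.19 to 3.23) and 2.80 (2.22 to 3.43), with overlapping intervals.

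F2, which encodes prothrombin, had 28 to 32 counts per lane in CD36_KO and 3, 3, 3 and 11 in WT lanes, a ratio of 2.35 (1.66 to 3.11). The fourth WT lane held more than the other 3 together, and without it the ratio was 3.15. Plg, the precursor of plasmin, which dissolves fibrin, had 48 to 51 counts per lane in CD36_KO and 6 to 12 in WT, a ratio of 2.48 (1.92 to 3.08). Kng1, the kininogen from which bradykinin is cut, had 36 to 45 counts per lane in CD36_KO and 5 to 12 in WT, a ratio of 2.05 (1.50 to 2.63). Kng1 shares 26.5% of its 31-base words with Kng2, which had 17 counts in CD36_KO and 0 in WT.

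The 4 genes for cytochromes P450 and the liver fatty acid-binding protein had the highest summed ratio of any role, 2.98 (2.67 to 3.30), from 873 counts in CD36_KO and 94 in WT. Cyp2e1, which oxidises ethanol and is known for its place around the central vein of the liver lobule, had 135, 111, 121 and 146 counts in CD36_KO lanes and 15, 11, 17 and 8 in WT lanes. The lowest CD36_KO lane was far above the highest WT lane, and the ratio was 3.06 (2.65 to 3.50). Cyp2c29 and Cyp3a11, drug-metabolising members of the 2C and 3A families, had 182 and 104 counts in CD36_KO, against 23 and 10 in WT. Their ratios were 2.75 (2.12 to 3.44) and 3.14 (2.20 to 4.24). Fabp1, which carries fatty acids inside hepatocytes, had 15, 24, 18 and 17 counts in CD36_KO lanes and 3, 1, 1 and 4 in WT lanes, a ratio of 2.80 (1.80 to 3.99). The lanes stayed apart, but at such counts the interval spans more than 2 log2 units.

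The 6 enzymes of amino acid, urea and glucose metabolism had the lowest summed ratio, 1.96 (1.78 to 2.13), from 1478 counts in CD36_KO and 323 in WT, and Ass1 alone held 531 and 191 of them. Cps1, which makes carbamoyl phosphate for the first step of the urea cycle, had 147, 168, 162 and 152 counts in CD36_KO lanes and 25, 27, 20 and 14 in WT lanes. The lanes were apart, and its ratio of 2.63 (2.31 to 2.97) is near that of Alb. Ass1, argininosuccinate synthase, stands further along the same cycle and is also used outside the liver to remake arginine from citrulline. It had 124, 122, 146 and 139 counts in CD36_KO lanes and 44, 39, 51 and 57 in WT lanes. Its lanes were apart too, but its ratio of 1.24 (1.00 to 1.48) lay below that of Cps1 with no overlap of the intervals. The transcripts of Ass1 share 43.1% of their 31-base words with Gm5424, to which 0 counts were assigned in either library.

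Pck1, which feeds gluconeogenesis, had 107 counts in CD36_KO and 20 in WT, a ratio of 2.18 (1.48 to 2.95). G6pc, which releases free glucose at the end of that path, had 8, 13, 5 and 9 counts in CD36_KO lanes and 0, 1, 1 and 0 in WT lanes. With 2 counts in the WT library its ratio of 3.89 has an interval of 1.93 to 6.99, the widest of the 38. Without WT lane 2 it was 4.54 and without WT lane 3 it was 4.53. Without WT lane 1 it was 3.53, the lowest with 1 lane left out. On log2(TPM + 1), where low levels are pulled together, it was 0.90. Tat and Hpd catalyse the first steps of tyrosine breakdown one after the other. Tat had 76 counts in CD36_KO and 15 in WT, a ratio of 2.10 (1.29 to 3.01), and Hpd had 100 and 9, a ratio of 3.24 (2.25 to 4.41). Hpd stood at 1.33 on log2(TPM + 1) and at 1.73 on log2(TPM + 0.1), both below that interval.

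**Figure D2:**
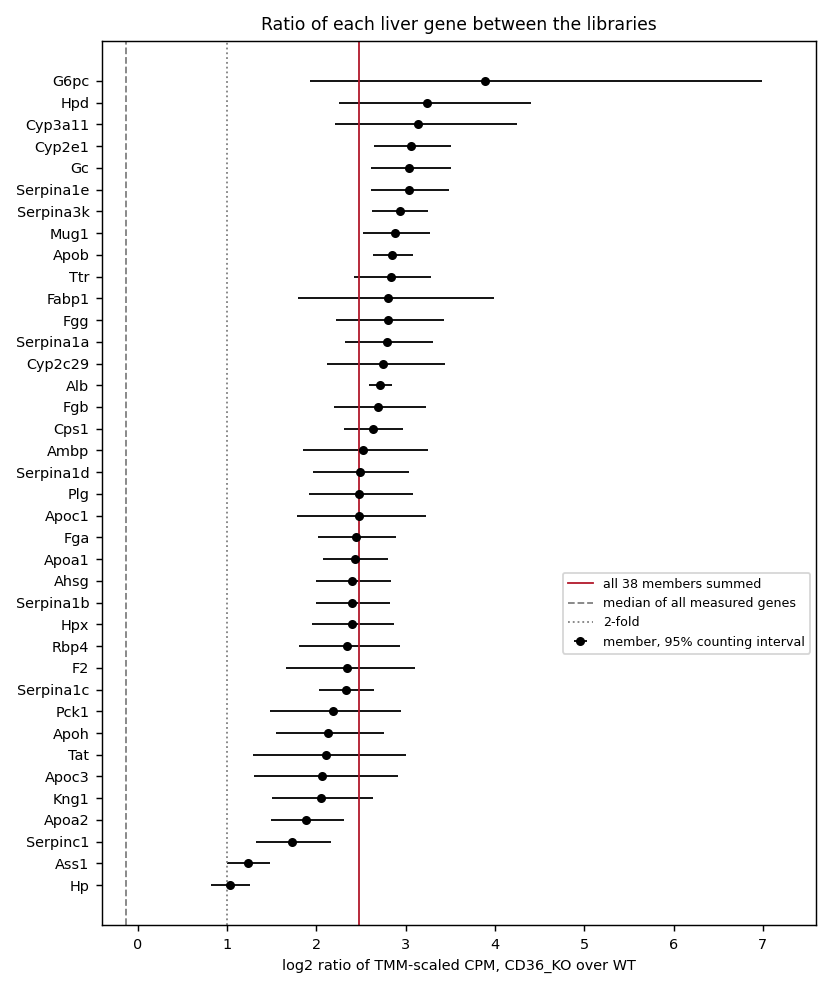
Log2 ratio of each of the 38 liver genes, CD36_KO over WT, in TMM-scaled CPM (points) with 95% counting intervals (lines), sorted from high to low. The solid line marks the summed list at 2.47, the dashed line the median of all measured genes at −0.13 and the dotted line 2-fold. Hp and Ass1 sit apart at the bottom, at 1.04 and 1.24.

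The spread among the genes was then set against counting error. The median log2 ratio of the 38 was 2.48, with an SD of 0.53 across genes, which are not replicates. For 27 of the 38 the interval held the ratio of the summed list, 2.47. Of the other 11, Alb, Gc, Apob, Serpina1e, Serpina3k, Mug1 and Cyp2e1 lay above it and Hp, Apoa2, Serpinc1 and Ass1 below it. Without Hp and Ass1, a pair chosen after their values were seen, the summed ratio was 2.64 (2.58 to 2.71) and the SD 0.43. The intervals of Alb, Gc, Apob, Serpina1e, Serpina3k and Mug1 held 2.64, and Cyp2e1 stayed above it. Apoa2 and Serpinc1 stayed below it, Kng1 now lay below it and the interval of Serpina1c ended about there. A departure of a given size shows more readily in abundant genes, whose intervals are narrow. Scaled by counting error, the squared departures from the weighted mean ratio were 9.73 per degree of freedom. Without Hp and Ass1 they were 2.27, so both spreads were wider than counting error alone.

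Levels between genes can be compared only per length, and TPM, deposited with the counts, does this. Alb was the highest in both libraries, at 147 ± 3.66 TPM in CD36_KO and 15.2 ± 0.842 TPM in WT (SD over 4 lanes of 1 library). In the CD36_KO library Apoa2 followed at 54.3 ± 6.90, Hp at 33.4 ± 2.23, Apoa1 at 33.4 ± 3.70 and Apoc1 at 33.2 ± 6.22 TPM, the last 3 being no further apart than their lanes. In the WT library Hp followed at 10.6 ± 1.79, Apoa2 at 9.26 ± 3.57 and Ass1 at 6.48 ± 1.35 TPM, Hp and Apoa2 being no further apart than their lanes. G6pc was the lowest in both, at 0.947 ± 0.354 TPM in CD36_KO and 0.0442 ± 0.0511 TPM in WT. The order of the 38 genes was similar in the libraries, with a Spearman correlation of 0.913 across the genes, which share the libraries and their transcript lengths. Hpd stood out by TPM, ranking 31 in CD36_KO at 5.56 TPM and 19 in WT at 1.61 TPM. Of its 9 WT counts, 5.0 were assigned to the 334-base transcript Hpd-203, which had 0.0 in CD36_KO, and the same read counts for more TPM in a short transcript. On log2(TPM + 1), 37 of the 38 genes stayed at least 2-fold higher, with G6pc the exception, and their median was 2.29. On that scale the median of all measured genes was 0.37, and 12.3% of them were at least 2-fold higher.

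**Figure D3:**
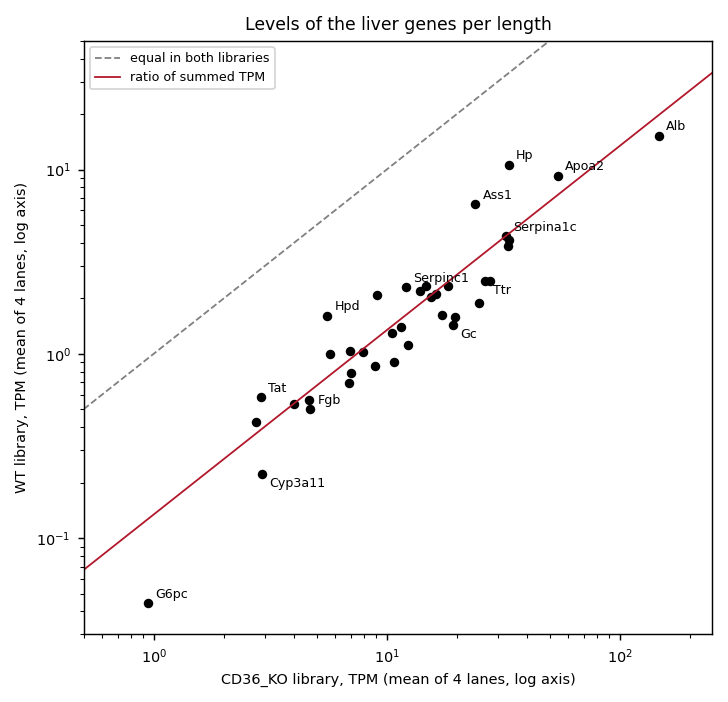
Level of each liver gene per length in the CD36_KO library (x axis) and the WT library (y axis), as the mean TPM of 4 lanes on log axes. The solid line marks the ratio of the summed TPM, 710 in CD36_KO over 95.4 in WT, and the dashed line equal levels, which all 38 points lie below.

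Beside the markers of the sorted cells, albumin RNA was not scarce. In the CD36_KO library Cd8a was at 59.0 TPM, and the level of Alb per length was 2.50 times that. In the WT library Cd8a was at 10.6 TPM, and Alb was 1.44 times that. Against Dct, an enzyme of melanin synthesis that marks the B16 cells, the ratio was 1.42 in CD36_KO and 0.0470 in WT. Lyz2, a lysozyme of myeloid cells, was far above Alb in both, with ratios of Alb to Lyz2 of 0.0969 and 0.0116 in CD36_KO and WT. The albumin level was thus above that of Cd8a in both libraries, and its ratio to Cd8a was higher in CD36_KO.

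Other liver genes were described from 10 lists by textbook role, which hold 150 genes outside the 38 and were written with earlier results of these data known. Of the 50 measured ones, 26 were at least 2-fold higher in CD36_KO, 5 were at least 2-fold lower and 19 lay between, with a median log2 ratio of 1.12. Among all measured genes 6.50% were at least 2-fold higher and 10.8% at least 2-fold lower. Across the 139 that had counts in both libraries, most of them scarce, the median was 1.93, where that of all 27357 genes counted in both was −0.02. Sums, which weigh abundant genes most, gave another picture. All 150 genes summed to 16429 counts in CD36_KO and 17192 in WT, a log2 ratio of −0.30 (−0.33 to −0.27). The 50 measured genes summed to 12975 and 16523, a ratio of −0.59 (−0.62 to −0.55), and the 100 under 5 CPM to 3454 and 669, a ratio of 2.13 (2.01 to 2.25). By list the summed ratios were 1.44 for hepatocyte carriers, 1.33 for drug and bile acid enzymes, 0.42 for other plasma proteins, 0.36 for acute phase proteins, 0.08 for the fetal liver list, −0.13 for transcription factors, −0.21 for glucose and glycogen enzymes and −1.13 for amino acid and urea enzymes. In the last list Arg1 alone held 1155 of 5622 counts in CD36_KO and 6010 of 10424 in WT. The zone lists, which share genes with the 38 and with other lists, summed to −0.52 for the central vein and −1.51 for the portal zone.

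By the median of measured genes, drug and bile acid enzymes came closest to the 38 genes. By the summed ratio hepatocyte carriers did, at 1.44 against 1.33. Among the 7 measured drug and bile acid enzymes, 5 were higher, 0 lower and 2 in between, and the median was 2.44. The carboxylesterase Ces3a, at 210 counts in CD36_KO and 32 in WT, had a ratio of 2.48 (1.93 to 3.06). Ephx1, an epoxide hydrolase that many tissues make, had 269 and 406 counts, a ratio of −0.83, and the flavin monooxygenase Fmo5 had 157 and 70, a ratio of 0.93. Other plasma proteins had 13 measured genes, of which 10 were higher and 1 lower, and their median was 1.95. Pzp, a relative of alpha-2-macroglobulin, had 591 counts in CD36_KO and 84 in WT, a ratio of 2.58 (2.24 to 2.92). The clotting factors F10 and F7, both also known from macrophages, had ratios of −1.42 and −0.46.

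Acute phase proteins were mixed, with 2 of 5 higher, 1 lower and 2 between and a median of 0.34. Itih4 had a ratio of 2.38 (1.84 to 2.95), while Cp, the copper carrier ceruloplasmin, stood at 0.34 (0.09 to 0.59) and Lbp, which binds bacterial lipopolysaccharide, at −1.90 (−2.23 to −1.57). Amino acid and urea enzymes, 13 in number, had 6 higher and 2 lower genes and a median of 0.94. Arg1, which ends the urea cycle in hepatocytes and is also abundant in macrophages of tumours, had a ratio of −2.62 (−2.71 to −2.53). Cps1, Ass1 and Arg1, enzymes of 1 cycle, therefore stood at 2.63, 1.24 and −2.62. Oat, which converts ornithine, stood at −1.07 and Glul, glutamine synthetase, at −0.88.

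Glucose and glycogen enzymes, 5 in number, had 2 higher and 0 lower genes and a median of 0.30. Pygl and Slc37a4, which myeloid cells also make, stood at −0.58 and −0.54. Of 4 hepatocyte carriers, 2 were higher, the bile acid transporter Slc10a1 at 1.69 (1.06 to 2.37) and Slco1b2 at 2.52 (1.80 to 3.32), and 2 between, Abcc2 standing at −0.13. Of the 13 liver-enriched transcription factors only Cebpa and Prox1 were measured, at −0.27 and −1.05. Across the 11 of them with counts in both libraries the median was 1.18. In the fetal liver list Gpc3 alone was measured, at −0.43.

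The lists for zones of the liver lobule gave no common direction. Of 5 measured portal genes 4 were higher and Arg1 was lower, and 3 of the 4, Cps1, Ass1 and Pck1, belong to the 38. Of 4 measured central vein genes Cyp2e1, also of the 38, was higher, Oat lower and Glul among the 2 between.

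**Figure D4:**
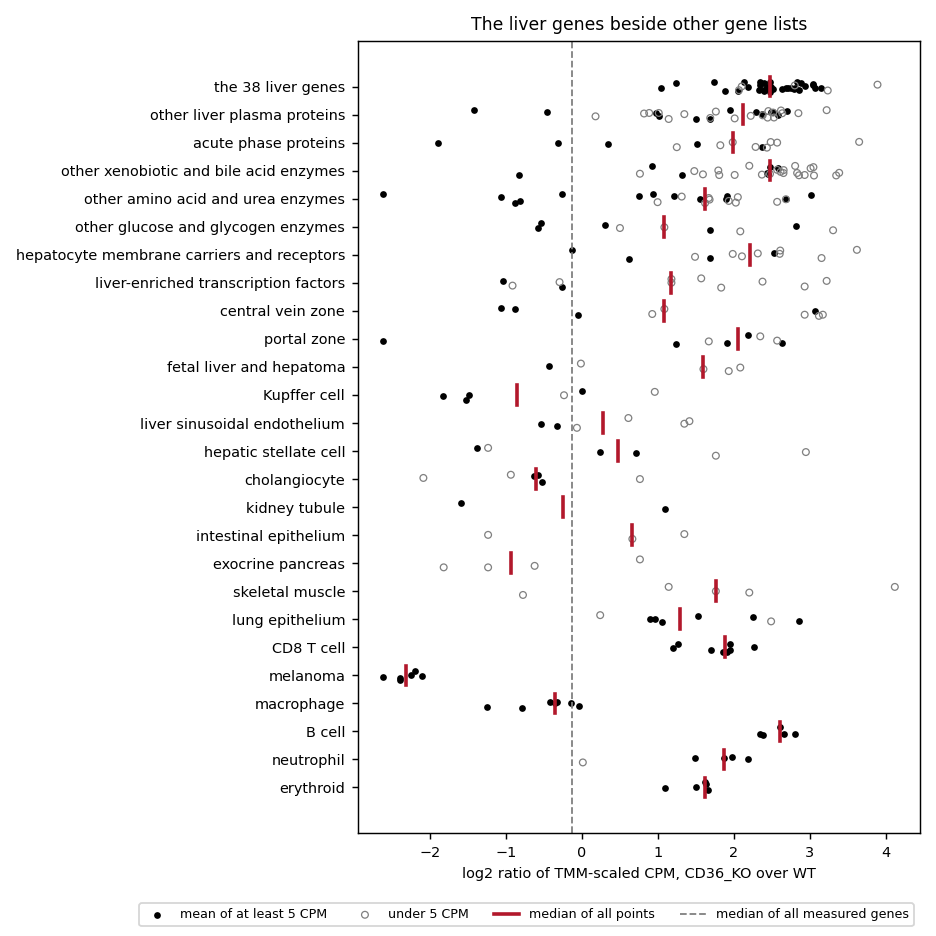
Log2 ratio of TMM-scaled CPM, CD36_KO over WT, for the 38 liver genes, 10 other liver lists and 15 lists of cell type markers. Filled points are measured genes (5 CPM or more), open points scarcer ones, red bars the median of each list's points and the dashed line the median of all measured genes. The 38 genes lie at 1.04 to 3.89, Kupffer cell and melanoma genes mostly below 0, and B cell genes at 2.35 to 2.80.

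Measured markers of the other cells of the liver did not share the ratio of the 38 genes. Of 4 measured Kupffer cell markers 0 were higher and 3 lower, among them Cd5l at −1.83 and Marco at −1.49, with Timd4 at 0.00, and the 6 listed summed to 232 to 249 CPM per lane in CD36_KO and 614 to 631 in WT. Of 2 measured markers of sinusoidal endothelium, Stab1 stood at −0.54 and Lyve1 at −0.33. Of 3 stellate cell markers Ecm1 was lower at −1.39, with Des at 0.71 and Hgf at 0.23 between. The 3 measured cholangiocyte markers, Spp1, Krt19 and Krt7, stood at −0.58, −0.53 and −0.64. Several of these genes are also made by macrophages, tumour or stroma. Across the 6 genes per list counted in both libraries, medians were −0.86 (Kupffer), 0.27 (sinusoidal endothelium), 0.47 (stellate) and −0.61 (cholangiocyte). In that order 0, 1, 2 and 0 of them were at least 2-fold higher, as were 8.09% of all genes counted in both libraries.

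Other organs that make some of the 38 proteins were looked at in the same way. Of 7 kidney tubule markers Kap, Umod, Miox and Slc22a6 had 0 counts in both libraries, Cyp4b1 stood at 1.10 and Lrp2 at −1.60. A count of 0 allows up to 3 counts per library. Of the markers of intestinal epithelium, exocrine pancreas and skeletal muscle, 0 were measured, and they summed to 35, 31 and 147 counts in CD36_KO and 25, 43 and 44 in WT. The 8 lung epithelial markers had 193 to 217 CPM per lane in CD36_KO and 51.6 to 62.9 in WT. Of 6 measured, 4 were higher, among them Cyp2f2 at 2.86 (2.37 to 3.38), Scgb1a1 at 2.24 (1.99 to 2.51) and Sftpc at 1.06.

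Lists for blood and tumour cells differed between the libraries in both directions. The 8 CD8 T cell markers were 8 of 8 higher with a median of 1.88 and 865 to 894 CPM per lane in CD36_KO, against 212 to 232 in WT, and Cd8a stood at 1.91, Cd8b1 at 1.95 and Trbc2 at 1.95. The 6 melanoma markers were 6 of 6 lower with a median of −2.32, at 828 to 885 CPM per lane in CD36_KO and 3432 to 3558 in WT, and Dct, Pmel and Tyrp1 stood at −2.25, −2.12 and −2.20. B cell markers were 5 of 5 higher with a median of 2.61, at 66.0 to 76.9 CPM in CD36_KO and 8.12 to 12.6 in WT, and Cd79a, Cd79b and Ms4a1 stood at 2.61, 2.35 and 2.80. Neutrophil markers were 4 of 4 higher with a median of 1.92, and S100a9, S100a8 and Csf3r stood at 2.19, 1.87 and 1.49. Erythroid markers were 5 of 5 higher with a median of 1.62, at 1119 to 1128 CPM in CD36_KO and 306 to 347 in WT, and the globin genes Hba-a1, Hba-a2 and Hbb-bs stood at 1.63, 1.50 and 1.62. Of 7 macrophage markers 1, Adgre1 at −1.26, was lower, Lyz2 and Mrc1 stood at −0.36 and −0.14, and the median was −0.36. The CD8 T cell, B cell, neutrophil and erythroid lists were higher between the same libraries as the liver genes were, the melanoma list was lower, and the part of any of them in the result was not tested.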

How the data were processed

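RNA of 8 deposited samples was read, which their titles give as lanes 1 to 4 of 1 library per genotype. Per the submitters' processing notes kallisto, the build GRCm38.p6 and DESeq2 were used, and the sources used here give no versions or strand setting. The authors deposited estimated counts per transcript, not normalised, and TPM, scaled by kallisto for effective length and lane total. Estimated counts were summed over the transcripts of a gene and over lanes and rounded, so that genes with near-copies depend on how reads were divided. TMM factors were 1.071 for CD36_KO and 0.934 for WT (edgeR 4.0.16, R 4.3.3). No test was made between genotypes, because lanes do not measure variation between mice. The ratio, interval and 2-fold rule were tried on simulated counts drawn independently (Poisson), as the interval assumes. That draw holds no variation between mice, so it checks the calculation alone. DESeq2 1.42.0 size factors were an alternative scaling.

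Gene positions and transcripts came from GENCODE M21, promoters from the RefSeq table for GRCm38.p6, which matched 30 of the 38 genes (not Plg, Apoc1, Kng1, Cps1, Apoc3, Ttr, Serpina3k and Hp), and coding sequences were aligned with MAFFT 7.526. The 38 genes and all lists were chosen with earlier results of these data known. Named genes are the 38, the 3 most abundant measured genes of every other list, liver genes at least 2-fold lower, and Cd36. Mug2, Kng2, Zbtb37, Gm5424 and the kidney genes at 0 counts were named after their values were seen. Of the genes that this rule names, 1 is not reported here.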

Additional observations from a re-analysis of the deposited data

Results flagged for a closer look

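Among 76 sets of 4 lanes, 1 for each liver gene and library, 6 had 1 lane far from the other 3 by Dixon's rule. The rule flags about 1 in 20 sets of normally distributed values. That rate need not hold for small counts with near ties, so the 6 are not set against it. Apoc1 had 9.34 CPM in CD36_KO lane 4, with 13.4 to 14.2 in the other lanes. Tat had 5.36 CPM in CD36_KO lane 1, with 7.78 to 8.17 in the others. In WT lane 4, Serpina1b had 8.46 CPM (4.88 to 5.03 in the others), F2 had 4.40 CPM (1.18 to 1.20) and Pck1 had 3.30 CPM (1.58 to 1.61). In WT lane 1, Plg had 4.73 CPM, with 2.37 to 2.40 in the others. The 6 values rest on 8 to 24 counts each.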

How the results depend on the processing

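All 38 genes stayed above 0 with other scalings, TPM, protein-coding transcripts alone or 1 lane left out, 13 alternatives in all. Their sizes held less well on TPM. On log2(TPM + 0.1) 20 of the 38 left their own counting interval and on log2(TPM + 1) 12 did, against at most 1 in any other alternative. The summed log2 ratio of 2.47 became 2.67 with total counts alone and 2.90 from summed TPM, which took no pseudocount. The median of all 12177 measured genes moved too, from −0.13 to 0.06 with total counts and 0.37 on log2(TPM + 1). The higher sums are therefore not a larger difference of the liver genes from other genes. In alternatives chosen after seeing the data it was 2.40 without Alb and 2.64 without Hp and Ass1. The median of the 33 measured liver genes, 2.48, became 2.93 on log2(TPM + 0.1). At a minimum of 20 CPM 13 genes were left, of which 13 were higher. Leaving out 1 lane at a time, replicates in the tables but lanes of 1 library, gave summed ratios of 2.47 to 2.56, medians of 2.45 to 2.69, 31 to 34 genes higher and 0 lower. Without CD36_KO lane 3, 31 of 32 measured genes were higher, Hp standing at 0.996. Protein-coding transcripts alone, also chosen after seeing the data, left 32 of 33, with Hp at 0.98. The acute phase median of 0.34 became 1.98, that of amino acid and urea enzymes 1.62 in place of 0.94 and that of glucose enzymes 1.08 in place of 0.30 when genes under 5 CPM were kept. No paired analysis was possible because lane numbers mark lanes of 1 library per genotype and no result comes from a test. At this depth genes with a few WT counts, such as G6pc, Fabp1 and Hpd, have intervals over 2 log2 units wide.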
